A study of Mus musculus with 12 samples.

Results

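The collagen alpha chain genes of HC11 cells were described in control cells and in cells with Snail1 knocked down. Every gene of the deposited expression table whose symbol has the form of a collagen alpha chain (Col, a number, a, a number) was taken, which gave 44 of 57180 genes. Of these, 22 reached 1 TPM (a unit of RNA abundance scaled for gene length and for the library total) in 3 or more of the 12 libraries. They comprised 6 of 11 fibrillar chains, 3 of 6 basement membrane chains (Col4) and 13 of 27 chains of other classes.

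HC11 is an established mouse mammary epithelial line, so all groups are 1 cell line. The cells were sorted, left to aggregate overnight in a low-serum medium with EGF and insulin, and placed in a migration assay in culture. RNA was taken at 0 h and 36 h for stranded mRNA sequencing in 4 groups of 3 libraries, which were control and Snail1 knockdown at each time. Libraries are numbered 1, 2 and 3 in a group except in control at 36 h, where the numbers are 1, 3 and 4, and values below follow that order. Controls are titled scr and given the genotype WT, and the constructs are not described. Control 36 h library 4 has a title that starts with "mix", an unexplained word; if it pools other libraries, that group holds fewer independent samples. The mean named for control at 36 h in the authors' deposited table leaves this library out, and without it the 36 h calls of Snai1, Col9a1, Col3a1 and Sparc below were not made. No label names separate cultures, so p-values here may reflect technical spread alone.

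Collagens are secreted or membrane proteins in which 3 alpha chains wind into a triple helix. Fibrillar collagens form the fibers of connective tissue, collagen IV forms the sheet of the basement membrane on which mammary epithelium rests, and other classes form beaded filaments, anchoring fibrils, short networks or hemidesmosomes. Collagen genes are often named as part of the program of epithelial-mesenchymal transition, in which Snail1, a zinc finger transcription factor that binds E-box sequences and mainly represses transcription, is a well-known regulator.

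Snai1, the gene of Snail1, stood at 1.34, 2.51 and 1.69 TPM in control libraries and at 0.58, 0.79 and 0.48 TPM in knockdown libraries at 0 h. The 36 h levels were 2.77, 2.69 and 3.92 TPM in control and 0.58, 0.44 and 0.20 TPM in knockdown. The knockdown mean was thus 33.4% of control at 0 h (log2 fold change -0.80, limma adjusted p = 0.0348) and 13.0% at 36 h (-1.55, limma adjusted p = 0.0105). Snai1 reached 1 TPM in 6 libraries, all of them control. It met the rule of 1 TPM in 3 or more libraries only through the groups in which it was higher, so these calls are a description. With 3 libraries against 3, the exact two-sided permutation test gave p = 0.1 at each time, the smallest it allows. With median-of-ratios scaling, explained below, the 0 h difference was not called (-0.51, limma adjusted p = 0.191). Over the alternative settings it was called in 11 of 23 at 0 h and in 18 of 23 at 36 h. The 36 h call was lost with a replicate block under either scaling (limma adjusted p = 0.169 and 0.105) and when either control library 4 or one of knockdown libraries 2 and 3 of that time was left out.

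Knockdown 0 h library 2 stood apart from the other libraries. Mitochondrial genes held 14.0% of its TPM, against 1.45% to 6.15% in the others, and its median-of-ratios factor (the median ratio of its genes to their geometric mean over the libraries) was 0.504, against 0.897 to 1.22. Summed mammary epithelial markers (Epcam, Cdh1, Krt8, Krt18, Krt5, Krt14, Esrp1 and Grhl2) reached 3369 TPM in it and 9906 TPM or more in every other library. Summed fibroblast markers (Pdgfra, Pdgfrb, Thy1, Fap, Twist2, Dcn and Lum) were 8.60 to 11.9 TPM in control and 2.36 to 12.9 TPM in knockdown at 0 h, and 6.36 to 12.5 and 5.51 to 9.86 TPM at 36 h, of which Pdgfra at 1.16 to 11.1 TPM and Dcn at up to 2.58 TPM gave the most, while Lum was at most 0.05 and Fap at most 0.11 TPM in any library. Endothelial, leukocyte and adipocyte markers summed to at most 7.02, 14.7 and 0.27 TPM, mainly through Pecam1 (up to 6.98 TPM) for endothelium and Cd68 (2.11 to 14.7 TPM) for leukocytes, with Cdh5 at most 0.02 and Ptprc at most 0.17 TPM. The part of other cell types in the collagen levels was not tested. The depth of the libraries is unknown because only TPM were used. In such bulk samples, fewer cells expressing a gene and less RNA per cell cannot be told apart.

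Collagen RNA in these cells was led by chains outside the fibrillar class. Over the 44 chains, the summed level was 939, 966 and 913 TPM in control at 0 h and 346, 273 and 523 TPM in knockdown at 0 h. At 36 h the sums were 1619, 845 and 1405 TPM in control and 683, 664 and 477 TPM in knockdown. The highest knockdown sum lay below the lowest control sum at both times. In control at 0 h the fibrillar chains together gave 53.2 ± 5.84 TPM and the Col4 chains 90.4 ± 15.2 TPM, against 796 ± 10.3 TPM for the other classes (SD, n = 3). Collagen VI alone gave 341 ± 10.6 TPM in control at 0 h, which was 36.3% of all collagen TPM, and 75.2 ± 43.4 TPM in knockdown, which was 18.7%. The share of the Col4 chains was 9.60% in control and 17.5% in knockdown at 0 h, and that of the fibrillar chains 5.66% and 10.9%. These shares were higher although the mean sums were lower. In knockdown at 0 h the sums were 65.7 ± 20.3 TPM for Col4 and 40.1 ± 7.77 TPM for the fibrillar chains. Both overlapped with control between libraries. At 36 h the shares were 10.9% in control and 13.5% in knockdown for Col4, and 7.03% and 8.21% for the fibrillar chains.

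**Figure D1:**
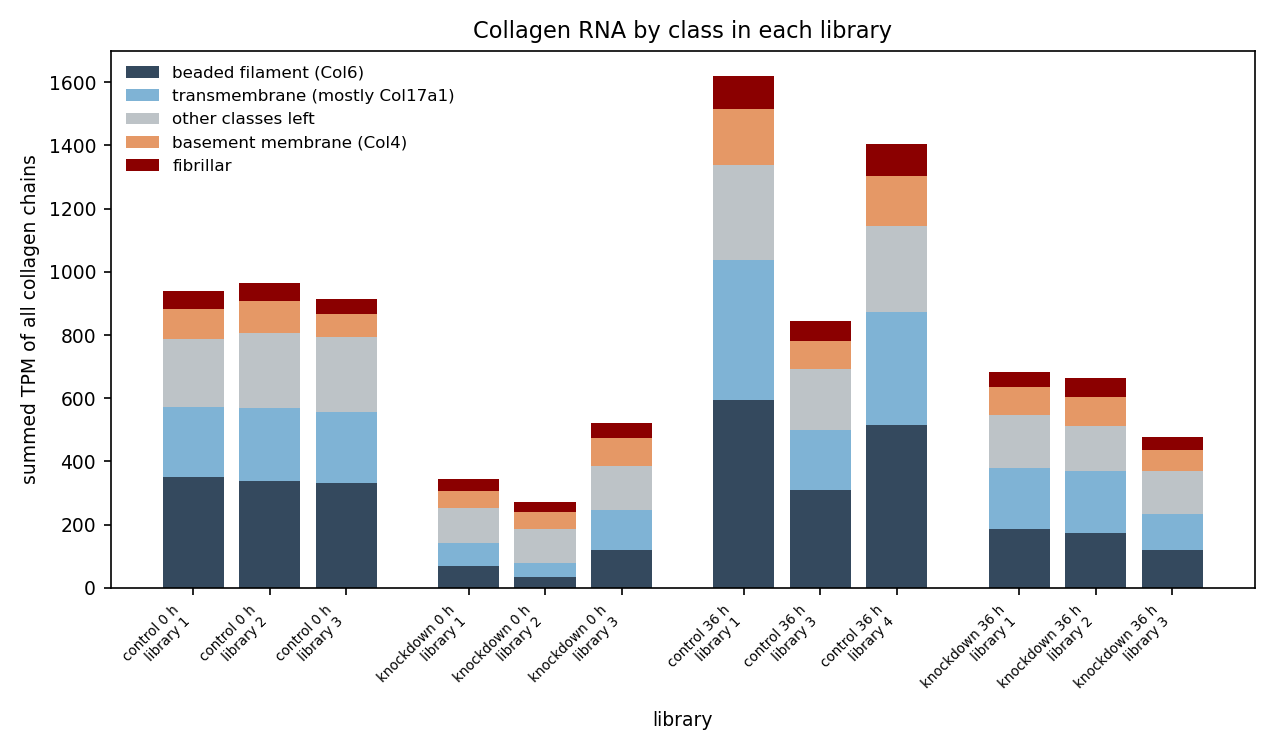
Summed TPM of the collagen chains in each library, stacked by class; each bar is 1 library and bars are grouped by condition. Collagen VI and the transmembrane class, mostly Col17a1, make up most of each control bar, and every knockdown bar lies below every control bar of the same time.

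Among single chains, 16 averaged 5 TPM or more in some group. The highest means in control at 0 h were those of Col6a1 (291 ± 9.37 TPM), Col17a1 (225 ± 5.70 TPM) and Col18a1 (66.0 ± 2.98 TPM), followed by Col9a3 (62.9 ± 5.75 TPM). Col9a3 and Col18a1 overlap between libraries, as does Col4a5 (53.6 ± 11.2 TPM) with Col9a3 and with Col6a2 (47.1 ± 1.59 TPM). The classical interstitial chains were low. Col1a1 stood at 5.13 ± 1.41 TPM in control at 0 h, and Col1a2, its partner in the type I heterotrimer, reached no more than 0.37 TPM in any library.

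**Figure D2:**
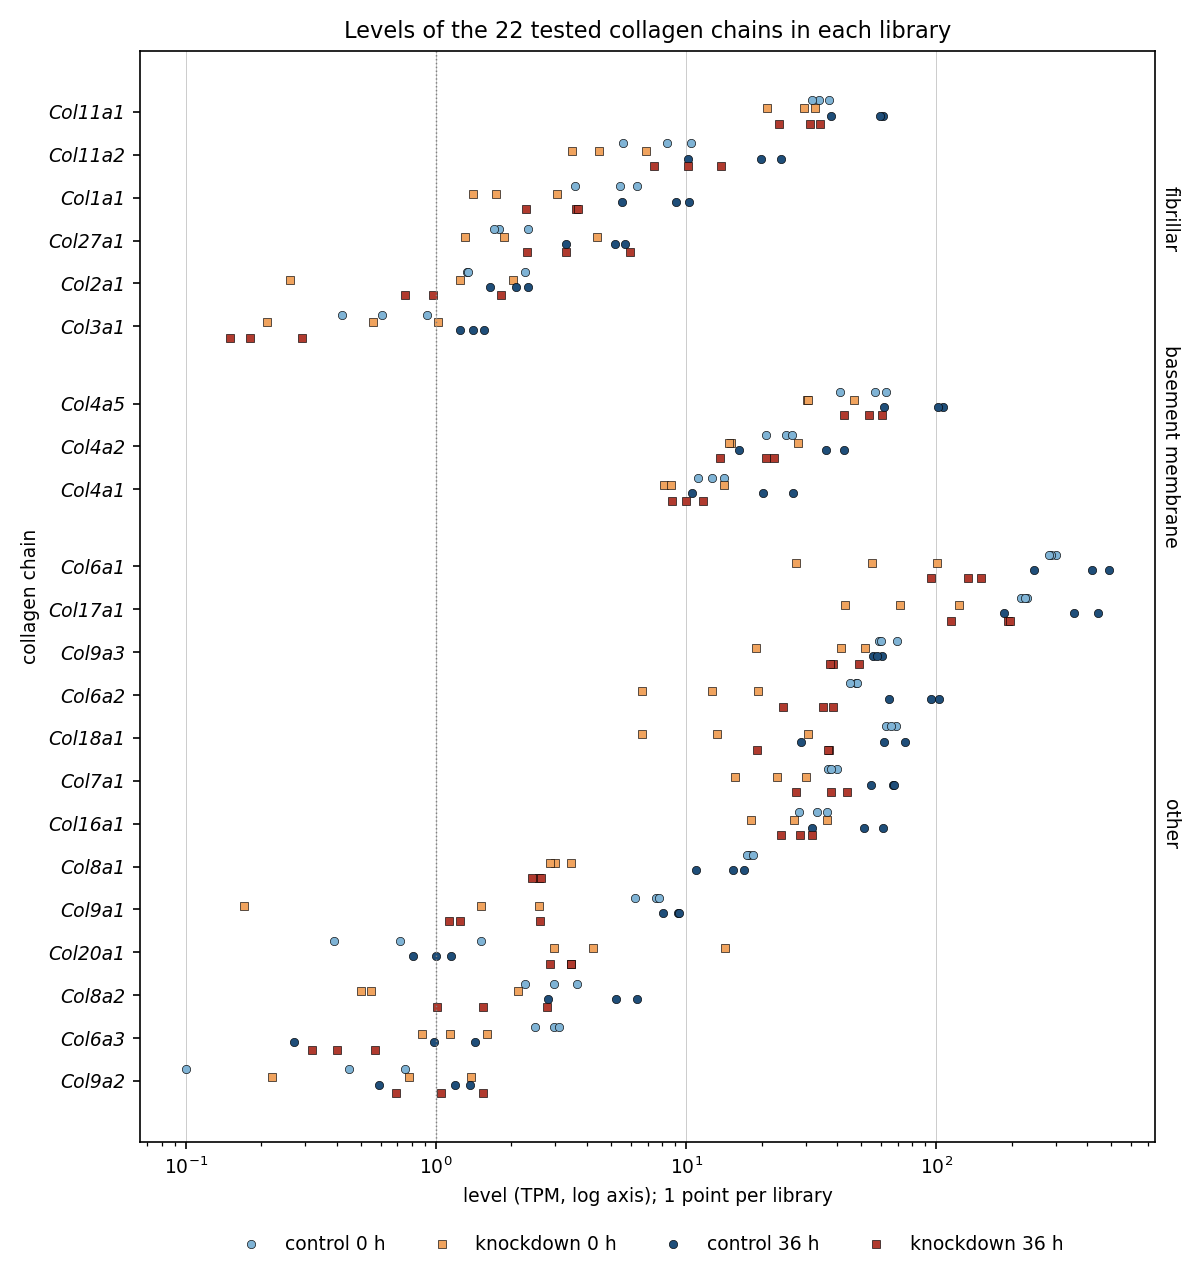
Level in TPM (log axis) of each of the 22 tested collagen chains, 1 point per library, with the 4 groups in different colors and symbols. Col6a1 and Col17a1 lie highest, and the knockdown points of Col8a1 and Col9a1 lie to the left of all control points at both times.

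The 22 chains under the filter were low throughout. Col4a6 and Col6a4 were listed at 0 in every library, and these are 2 of 14 chains whose highest level was under 0.2 TPM, the others being Col24a1, Col4a3, Col4a4, Col6a5, Col6a6, Col10a1, Col14a1, Col15a1, Col19a1, Col22a1, Col23a1 and Col28a1. Col5a2, Col12a1 and Col26a1 each passed 1 TPM in 1 library, with highest levels of 1.14, 2.76 and 1.13 TPM. The highest levels of Col1a2, Col5a1, Col5a3, Col13a1 and Col25a1 were 0.37, 0.95, 0.83, 0.27 and 0.57 TPM. No fold change is given for any of them. Some of the tested chains also passed narrowly: Col3a1 reached 1 TPM in all 3 control 36 h libraries and in 1 knockdown 0 h library, so it passed mainly through the group in which it was highest.

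Between knockdown and control at 0 h, 8 of the 22 tested chains were called lower and 1 was called higher by limma on log2(TPM + 1) at an adjusted p under 0.05. Among all 14426 genes tested, 14.6% were lower and 3.10% higher by the same rule. The chains called lower were Col6a1, Col6a2, Col6a3, Col8a1, Col9a1, Col17a1, Col18a1 and Col1a1, and the chain called higher was Col20a1. By class, 1 of 6 fibrillar, 0 of 3 basement membrane and 7 of 13 other chains were called lower; for the Col4 chains an unadjusted limma p under 0.05 was also reached by 0 of 3, against 30.0% of all genes lower and 7.28% higher. The median log2 fold change was -0.69 over the 22 chains and -0.41 over all genes tested. Of the 22 chains 19 were negative, as were 10397 of the 14426 genes. With median-of-ratios scaling these medians were -0.21 and 0.02, and 14 of the 22 chains and 7011 of all genes were negative. Under it 6 chains were called lower and 1 higher, against 10.2% and 8.66% of all genes. That scaling moved the share of higher calls among all calls from 17.5% to 46.0%. Without knockdown 0 h library 2, 7 chains were called lower and 1 higher, against 23.7% of genes in either direction. The 3 knockdown libraries lay wholly below the control libraries for 11 chains and wholly above for 1, against 30.7% and 7.24% of all genes. Without control 0 h library 1, 2 or 3, the chains called in either direction came to 4, 5 and 4, against 5.27% to 7.05% of all genes.

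At 36 h, 3 of the 22 chains were called lower and 0 higher, against 1.64% and 0.894% of all genes tested. The chains called were Col3a1, Col8a1 and Col9a1, of which Col3a1 passed the filter mainly through control at 36 h, so its call is a description. The median log2 fold change was -0.77 over the 22 chains and -0.09 over all genes tested. Of the 22 chains 20 were negative, as were 8444 of the 14426 genes. With median-of-ratios scaling the median of the chains was -0.66, and 20 of the 22 and 7137 of all genes were negative. In that fit 6 chains were called lower and 0 higher, against 3.44% and 2.50% of all genes. An unadjusted limma p under 0.05 was reached by 13 chains in the lower direction and 1 in the higher direction, against 10.8% and 5.46% of all genes. The 3 knockdown libraries lay wholly below the 3 control libraries for 12 chains and wholly above for 1, against 22.0% and 14.8% of all genes. Without knockdown 0 h library 2, which is in neither group compared but enters the shared spread and the filter (14227 genes tested without it), 9 chains were called lower and 1 higher, against 19.0% of genes in either direction. Without knockdown 0 h library 3, 6 chains were called in either direction, against 3.87% of all genes. Without control 36 h library 1 or 4 or any 1 of the knockdown 36 h libraries 1 chain was called, against 0.168% to 0.377% of all genes. Both times together, 8 chains had knockdown libraries wholly below control at 0 h and at 36 h (Col1a1, Col6a1, Col6a2, Col7a1, Col8a1, Col8a2, Col9a1 and Col9a3), against 15.1% of all genes, and Col20a1 lay wholly above at both, against 3.51%. The chains called lower at both times were 2 of 22, Col8a1 and Col9a1, against 1.48% of all genes.

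**Figure D3:**
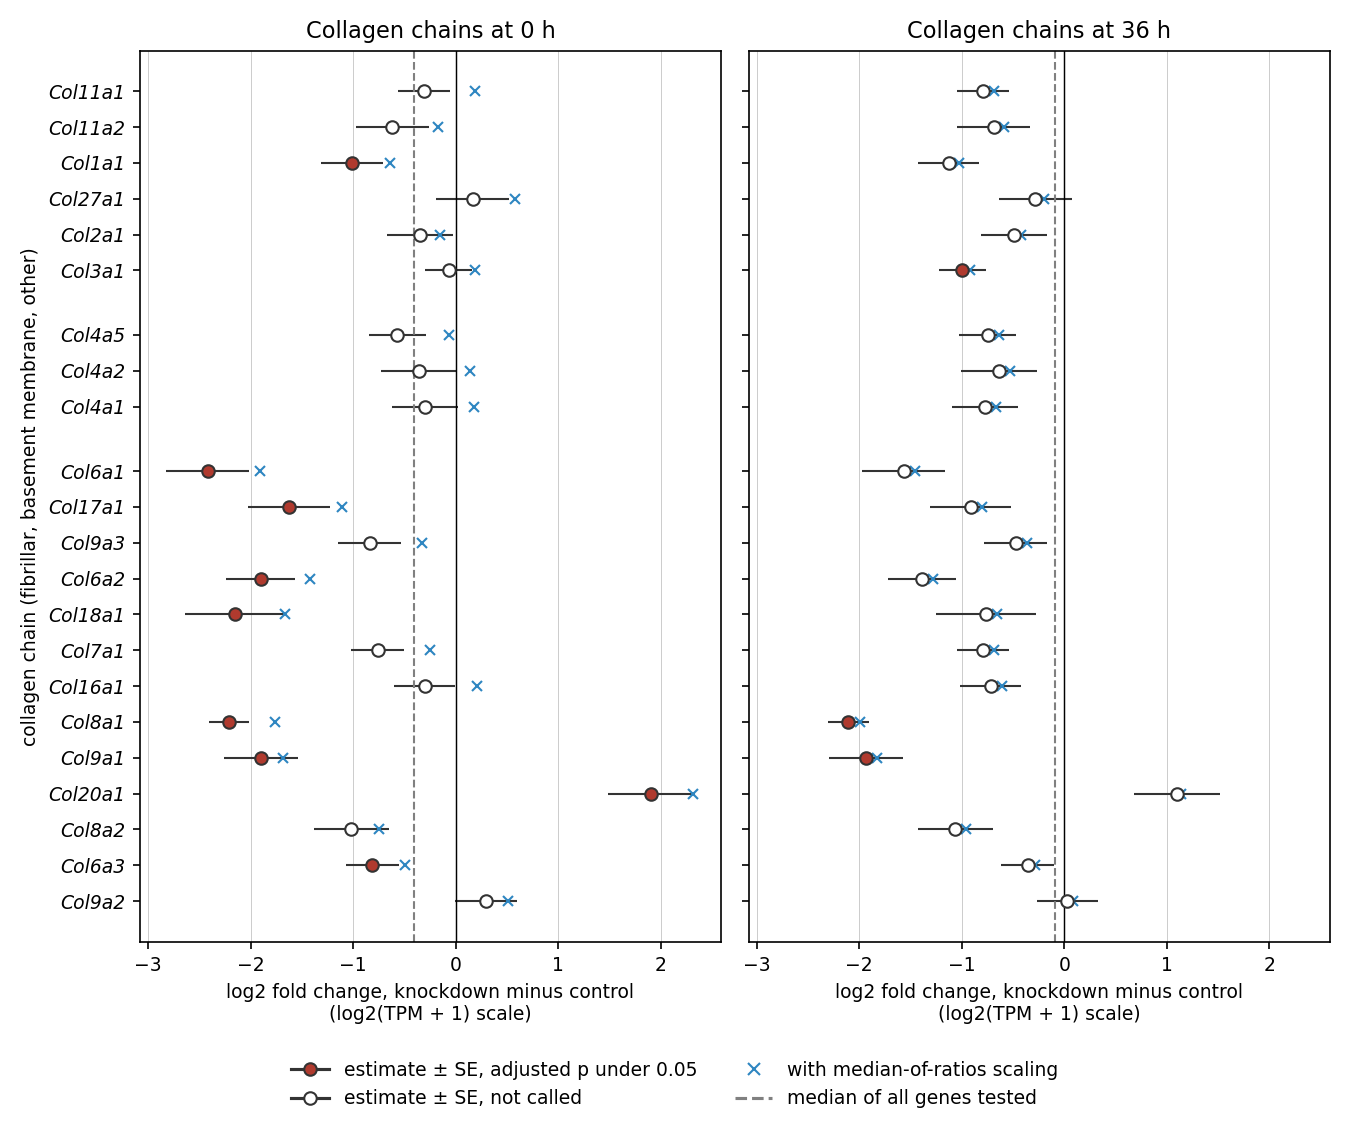
Log2 fold change (knockdown minus control, log2(TPM + 1) scale) of each tested chain at 0 h and 36 h; circles are limma estimates with SE (filled red when called), crosses the same with median-of-ratios scaling, and the dashed line the median of all genes tested. Col8a1 and Col9a1 are called lower at both times, while at 0 h Col3a1, Col4a1, Col4a2, Col11a1 and Col16a1 lie below 0 by TPM and above 0 with the other scaling.

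The calls differed in how far they held over the alternative settings. Col8a1 was called at 36 h in 23 of 24 settings, the exception being the replicate block (limma adjusted p = 0.0794). At 0 h, Col6a1, Col6a2 and Col9a1 were each called in 23 of 24 and lost when the 0 h libraries alone were fitted (limma adjusted p = 0.0587, 0.0683 and 0.0794). Col18a1 was called in 20 of 24 and Col17a1 in 18 of 24, and both were lost without any 1 of the control 0 h libraries, with limma adjusted p up to 0.0548 and 0.067, and when the 0 h libraries alone were fitted (0.0853 and 0.0905). Col17a1 was also lost with the replicate block (limma adjusted p = 0.0567) and with no filter (0.0615). Col20a1 was called in 20 of 23 and lost without control 0 h library 1 (limma adjusted p = 0.0625) or 3 (0.0508), and when the 0 h libraries alone were fitted (0.109). Col1a1 was called in 8 of 24 and Col6a3 in 5 of 23. At 36 h, Col9a1 was called in 15 of 24 and lost without control library 1 or 4 or any 1 knockdown library of that time (limma adjusted p from 0.067 to 0.115), and Col3a1 was called in 9 of 23. Some chains not called at 36 h were called there under other settings, among them Col6a1 and Col1a1 in 8 of 24, Col6a2 in 9 of 24 and Col11a1 in 7 of 24.

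Collagen VI forms beaded microfilaments close to the cell surface, from the products of Col6a1, Col6a2 and a further chain such as Col6a3. Col6a1 stood at 301, 288 and 283 TPM in control at 0 h and at 55.4, 27.5 and 100.3 TPM in knockdown. By 36 h the levels were 491, 246 and 420 TPM in control and 150.3, 134 and 95.4 TPM in knockdown. The groups did not overlap at either time, and the 3 control 36 h libraries were spread over a wide range. The knockdown mean was 21.0% of control at 0 h (log2 fold change -2.42, SE 0.405, limma adjusted p = 0.00452), and at 36 h the log2 fold change of -1.57 was not called (limma adjusted p = 0.0714). It was called at 36 h with median-of-ratios scaling (limma adjusted p = 0.00805) and without knockdown 0 h library 2 (0.0045). Without that library the knockdown mean of Col6a1 at 0 h was 26.8% of control.

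Col6a2 stood at 47.8, 48.3 and 45.3 TPM in control at 0 h and at 12.6, 6.68 and 19.4 TPM in knockdown. At 36 h its levels were 102, 64.7 and 95.1 TPM in control and 35.2, 38.8 and 24.4 TPM in knockdown. Both chains thus showed the same order of group means, with knockdown at 0 h lowest and control at 36 h highest. For Col6a1 the 0 h and 36 h libraries overlapped in control and in knockdown, and a change over time was called for neither chain. The knockdown mean of Col6a2 was 27.3% of control at 0 h (log2 fold change -1.90, SE 0.333, limma adjusted p = 0.00541), and 33.9% without knockdown 0 h library 2. At 36 h the log2 fold change of -1.39 was not called (limma adjusted p = 0.0544), but was with median-of-ratios scaling (limma adjusted p = 0.00377) and without knockdown 0 h library 2 (0.00251). Col6a3 was far lower, at 2.95, 3.10 and 2.48 TPM in control and 1.14, 0.88 and 1.59 TPM in knockdown at 0 h (log2 fold change -0.81, limma adjusted p = 0.0486). At 36 h Col6a3 stood at 1.43, 0.27 and 0.98 TPM in control and 0.57, 0.40 and 0.32 TPM in knockdown, and the groups overlapped. The 0 h call of Col6a3 was not made with median-of-ratios scaling (limma adjusted p = 0.148) or without knockdown 0 h library 2 (limma adjusted p = 0.0856).

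In the RefSeq annotation Col6a2 and Col6a1 are neighbors on chromosome 10 with 0 protein-coding genes between them, and Col18a1 lies 2 protein-coding genes further. The promoter window of Col6a1 (250 bases before to 50 after the start, RefSeq, GRCm38.p6, chr10:76725995-76726294, minus strand) is shown because Col6a1 had the highest mean of the chains in control cells and its window was the only one of 38 collagen windows with the AP-1 motif TGACTCA on either strand. The motif is in capitals and begins 90 bases before the start.
Col6a1: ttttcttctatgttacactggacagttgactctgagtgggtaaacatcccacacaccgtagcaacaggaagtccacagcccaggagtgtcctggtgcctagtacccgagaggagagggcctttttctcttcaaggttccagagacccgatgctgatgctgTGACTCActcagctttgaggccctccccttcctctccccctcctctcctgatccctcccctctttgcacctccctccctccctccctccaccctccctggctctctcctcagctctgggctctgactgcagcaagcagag
The same letters occur in 5.2% of 32851 RefSeq mouse promoter windows of this length. The submitters' notes name another build, GRCm39, for the expression table, so these coordinates apply to the sequence only.

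Collagen VIII forms short-chain networks, and its chain Col8a1 was called lower at 0 h under each of the 24 alternative settings run. Col8a1 stood at 17.8, 17.4 and 18.5 TPM in control at 0 h and at 3.47, 2.99 and 2.85 TPM in knockdown. At 36 h it stood at 17.1, 11.0 and 15.3 TPM in control and at 2.58, 2.62 and 2.41 TPM in knockdown. Knockdown 0 h library 2 lay between the other libraries of its group here. The knockdown mean was 17.3% of control at 0 h (log2 fold change -2.21, SE 0.197, limma adjusted p = 0.000475) and 17.5% at 36 h (-2.11, SE 0.197, limma adjusted p = 0.0014). Col8a2, the other chain of collagen VIII, stood at 2.97, 3.65 and 2.26 TPM in control and 0.50, 0.55 and 2.13 TPM in knockdown at 0 h, which was not called (log2 fold change -1.02, limma adjusted p = 0.0713).

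The motif CAGGTG, a core E-box bound by Snail proteins, was looked for on both strands of the promoter windows, which were found for 35 of the 44 chains and 19 of the 22 tested. It occurred in the windows of Col4a4, Col6a5, Col8a1, Col9a2 and Col16a1, of which the last 3 were among the 19 tested chains with a window, against 20.2% of all RefSeq windows. The whole window of Col8a1 (GRCm38.p6, chr16:57754688-57754987, minus strand) is shown because this chain was called lower at both times, with the motif in capitals as it reads on the gene's strand, 18 bases before the start.
Col8a1: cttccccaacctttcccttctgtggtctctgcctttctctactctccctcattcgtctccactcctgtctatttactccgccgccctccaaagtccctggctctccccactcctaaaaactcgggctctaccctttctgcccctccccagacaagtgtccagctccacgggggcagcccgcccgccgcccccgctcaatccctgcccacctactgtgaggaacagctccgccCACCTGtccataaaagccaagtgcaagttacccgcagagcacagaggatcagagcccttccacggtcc
For comparison, 30 bases around the motif are shown for the other tested chains, Col9a2 (chr4:121039575-121039604, plus strand, 21 bases after the start) and Col16a1 (chr4:130047647-130047676, plus strand, 181 bases before the start), neither of which was called at 0 h or 36 h.
Col9a2: ccacagtgctctCAGGTGacaggcctgcag
Col16a1: cacccgcaggctCACCTGgctggggaagcg
A match describes letters in a window and no binding was measured.

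Collagen IX is a fibril-associated collagen built from the products of Col9a1, Col9a2 and Col9a3, which differed widely in level here. Col9a1 stood at 6.24, 7.58 and 7.78 TPM in control at 0 h and at 1.51, 0.17 and 2.57 TPM in knockdown. Its 36 h levels were 9.27, 8.08 and 9.35 TPM in control and 1.24, 2.60 and 1.13 TPM in knockdown. The groups did not overlap at either time, and the lowest of all values was that of knockdown 0 h library 2. The knockdown mean was 19.7% of control at 0 h (log2 fold change -1.90, SE 0.362, limma adjusted p = 0.00776) and 18.6% at 36 h (-1.94, SE 0.362, limma adjusted p = 0.0237). Without knockdown 0 h library 2 the 0 h mean was 28.3% of control. Col9a3 was higher in level, at 59.1, 60.0 and 69.5 TPM in control and 41.7, 19.0 and 52.0 TPM in knockdown at 0 h. At 36 h Col9a3 stood at 60.6, 55.8 and 57.7 TPM in control and 49.1, 38.6 and 37.6 TPM in knockdown. Its groups did not overlap at either time, but neither difference was called (log2 fold change -0.84 with limma adjusted p = 0.0786 at 0 h, and -0.47 with limma adjusted p = 0.522 at 36 h). Col9a2 lay between 0.10 and 1.54 TPM over the 12 libraries, with log2 fold changes of 0.30 at 0 h and 0.03 at 36 h, neither called, and both signs depend on the setting.

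The first RefSeq window of Col9a1 (GRCm38.p6, chr1:24177360-24177659, plus strand) is shown because this is the other chain called lower at both times; neither motif was found in it or in the gene's other window, so it has no capitals.
Col9a1: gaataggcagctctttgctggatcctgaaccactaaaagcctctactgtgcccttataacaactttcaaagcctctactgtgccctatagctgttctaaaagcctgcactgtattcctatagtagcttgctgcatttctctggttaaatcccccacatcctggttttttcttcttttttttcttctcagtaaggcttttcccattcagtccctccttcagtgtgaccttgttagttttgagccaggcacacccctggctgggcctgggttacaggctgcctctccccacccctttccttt

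Among the membrane and basement membrane zone collagens outside the Col4 family, Col17a1, the transmembrane collagen of hemidesmosomes, stood at 219, 230.2 and 226 TPM in control at 0 h and at 71.4, 43.0 and 123 TPM in knockdown. The 36 h levels were 444, 187 and 356 TPM in control and 194, 197 and 115 TPM in knockdown, and the groups overlapped. Its knockdown mean at 0 h was 35.2% of control (log2 fold change -1.62, SE 0.397, limma adjusted p = 0.0206), and at 36 h it was not called (-0.91, limma adjusted p = 0.281). Without knockdown 0 h library 2 the 0 h mean was 43.2% of control. Col18a1, a heparan sulfate collagen of basement membranes and the source of endostatin, stood at 63.1, 69.1 and 66.0 TPM in control and 13.3, 6.67 and 30.6 TPM in knockdown at 0 h, without overlap. Its knockdown mean was 25.5% of control at 0 h (log2 fold change -2.15, SE 0.491, limma adjusted p = 0.0159), and 33.2% without knockdown 0 h library 2. At 36 h Col18a1 stood at 75.2, 28.8 and 61.9 TPM in control and 37.1, 36.9 and 19.1 TPM in knockdown, which overlapped and was not called (limma adjusted p = 0.516). Col7a1, which forms the anchoring fibrils below the basement membrane, stood at 36.8, 40.2 and 38.1 TPM in control and 30.2, 23.0 and 15.7 TPM in knockdown at 0 h. At 36 h it stood at 67.1, 54.8 and 67.7 TPM in control and 37.9, 27.6 and 44.0 TPM in knockdown. Its libraries did not overlap at either time, and neither difference was called (log2 fold change -0.76 with limma adjusted p = 0.0594 at 0 h, and -0.80 with limma adjusted p = 0.135 at 36 h).

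Col20a1, a fibril-associated chain, was the single chain called higher. It stood at 0.39, 1.51 and 0.72 TPM in control and at 2.97, 14.3 and 4.24 TPM in knockdown at 0 h. After 36 h the levels were 0.81, 1.00 and 1.15 TPM in control and 3.46, 2.86 and 3.46 TPM in knockdown. Its levels in knockdown exceeded every control level at both times, and the highest by far was knockdown 0 h library 2. The knockdown mean at 0 h was 8.22-fold that of control (log2 fold change 1.91, SE 0.421, limma adjusted p = 0.0139), and without that library it was 4.13-fold (log2 fold change 1.33, limma adjusted p = 0.0056). At 36 h the log2 fold change of 1.10 was not called (limma adjusted p = 0.214). Col16a1, another fibril-associated chain, stood at 28.3, 36.5 and 33.3 TPM in control and 18.1, 36.6 and 27.0 TPM in knockdown at 0 h, which overlapped. At 36 h Col16a1 stood at 61.0, 31.8 and 51.5 TPM in control and 31.8, 28.4 and 23.9 TPM in knockdown, and its difference was called at neither time.

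The promoter window of Col20a1 (GRCm38.p6, chr2:180986285-180986584, plus strand) is shown beside those of the chains that were lower; neither motif was found in it.
Col20a1: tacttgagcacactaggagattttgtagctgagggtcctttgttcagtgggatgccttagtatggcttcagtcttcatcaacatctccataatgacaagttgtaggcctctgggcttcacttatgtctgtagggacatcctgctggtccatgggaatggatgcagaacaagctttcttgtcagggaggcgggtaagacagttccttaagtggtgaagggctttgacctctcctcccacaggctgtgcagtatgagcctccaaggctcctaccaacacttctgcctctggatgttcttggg

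Collagen IV was present as Col4a1, Col4a2 and Col4a5, and none of the 3 was called in either knockdown comparison. Col4a1 stood at 14.1, 12.6 and 11.2 TPM in control and 8.18, 8.68 and 14.2 TPM in knockdown at 0 h, and at 26.8, 10.5 and 20.4 TPM and 11.7, 8.78 and 9.98 TPM at 36 h. Col4a2 stood at 25.0, 26.4 and 20.8 TPM in control and 15.1, 14.8 and 28.1 TPM in knockdown at 0 h, and at 42.8, 16.3 and 36.3 TPM and 20.8, 22.5 and 13.6 TPM at 36 h. The groups of both overlapped at both times, and knockdown 0 h library 3 was the highest knockdown library for each. Their log2 fold changes at 0 h, -0.30 and -0.36 by TPM, were 0.18 and 0.14 with median-of-ratios scaling. Col4a5, a chain of the other collagen IV networks, stood at 56.6, 63.0 and 41.2 TPM in control and 30.3, 30.8 and 46.8 TPM in knockdown at 0 h (log2 fold change -0.57, limma adjusted p = 0.157). At 36 h Col4a5 stood at 107, 61.9 and 101 TPM in control and 54.0, 60.4 and 42.6 TPM in knockdown, which did not overlap but was not called (log2 fold change -0.75, limma adjusted p = 0.202). The median log2 fold change of the 3 Col4 chains at 36 h was -0.75, against -0.09 over all genes tested. With median-of-ratios scaling these medians were -0.64 and 0.005. At 36 h, 2 of the 3 were lower at an unadjusted limma p under 0.05, against 10.8% of all genes.

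Col4a1 and Col4a2 are transcribed in opposite directions from a shared promoter region. The ratio of their levels lay between 0.391 and 0.733 in all 12 libraries, and the level of Col4a1 ranged from 8.18 to 26.8 TPM. A link between the promoter region and the ratio was not tested. The stretch that both windows hold (GRCm38.p6, chr8:11312777-11312854, written on the plus strand) is shown because it carries both start sites, which are 21 bases apart. The 22 bases from one start to the other are in capitals. By these starts (Col4a1 at 11312826, minus strand, and Col4a2 at 11312805, plus strand) both genes are read across the capitals, which are not a gap between them.
Col4a1 and Col4a2: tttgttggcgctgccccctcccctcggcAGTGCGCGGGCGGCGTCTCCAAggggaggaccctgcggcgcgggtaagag

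The fibrillar class held Col1a1, Col11a1 and Col11a2, each averaging 5 TPM or more in some group, and the lower Col3a1, which was called. Col1a1, the main chain of collagen I, stood at 5.43, 6.36 and 3.59 TPM in control and 1.73, 1.40 and 3.05 TPM in knockdown at 0 h. Its 36 h levels were 9.07, 5.55 and 10.3 TPM in control and 3.62, 3.70 and 2.29 TPM in knockdown, and the groups overlapped at neither time. Its knockdown mean was 40.2% of control at 0 h (log2 fold change -1.01, limma adjusted p = 0.0398), a call not made with median-of-ratios scaling (limma adjusted p = 0.09) or without knockdown 0 h library 2 (limma adjusted p = 0.0739), and at 36 h it was not called (-1.13, limma adjusted p = 0.0761) but was with median-of-ratios scaling (limma adjusted p = 0.0362) and without that library (0.0195). Without knockdown 0 h library 2 the 0 h mean of Col1a1 was 46.6% of control. Col3a1, the chain of collagen III, stood at 0.92, 0.61 and 0.42 TPM in control and 0.21, 1.02 and 0.56 TPM in knockdown at 0 h, which overlapped. At 36 h Col3a1 stood at 1.56, 1.40 and 1.25 TPM in control and 0.18, 0.29 and 0.15 TPM in knockdown (log2 fold change -0.99, SE 0.228, limma adjusted p = 0.0468). This call rests on levels near 1 TPM and was lost without any 1 of the 3 control or 3 knockdown libraries of that time.

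Col11a1 and Col11a2, chains of the minor fibrillar collagen XI, were the most abundant fibrillar chains. Col11a1 stood at 37.3, 33.9 and 31.7 TPM in control and 29.7, 21.0 and 32.8 TPM in knockdown at 0 h. At 36 h it stood at 61.2, 37.8 and 59.8 TPM in control and 31.4, 34.2 and 23.6 TPM in knockdown, which did not overlap but was not called (log2 fold change -0.80, limma adjusted p = 0.132). Col11a2 stood at 8.38, 10.4 and 5.57 TPM in control and 3.48, 4.49 and 6.92 TPM in knockdown at 0 h, and at 24.0, 10.2 and 19.9 TPM and 10.2, 13.8 and 7.40 TPM at 36 h, with overlap at both times. Col2a1, between 0.26 and 2.32 TPM, and Col27a1, between 1.30 and 5.98 TPM, were called in neither comparison.

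Ratios between chains of the same collagen type were taken within each library, per length, and described without a test. The ratio of Col6a1 to Col6a2 was 5.97 to 6.30 in control at 0 h and 4.12 to 5.18 in knockdown at 0 h, so these ranges did not overlap. At 36 h it was 3.80 to 4.81 in control and 3.45 to 4.27 in knockdown, which overlapped. The ratio of Col9a3 to Col9a1 was 7.92 to 9.48 in control and 20.2 to 112 in knockdown at 0 h, and 6.17 to 6.90 and 14.9 to 39.6 at 36 h. It was higher in every knockdown library than in any control library, and its highest value came from knockdown 0 h library 2, in which Col9a1 was at 0.17 TPM. The ratio of Col6a2 to Col6a3 was 15.6 to 18.3 in control and 7.59 to 12.2 in knockdown at 0 h, and 71.5 to 240 and 61.8 to 97.0 at 36 h. The 36 h ratios divide by low levels of Col6a3, 0.27 to 1.43 TPM in control and 0.32 to 0.57 TPM in knockdown. The ratio of 240 came from control 36 h library 3, in which Col6a3 was at 0.27 TPM. Ratios within a library do not depend on how libraries are scaled to each other. The pairs were chosen with the levels known.

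**Figure D4:**
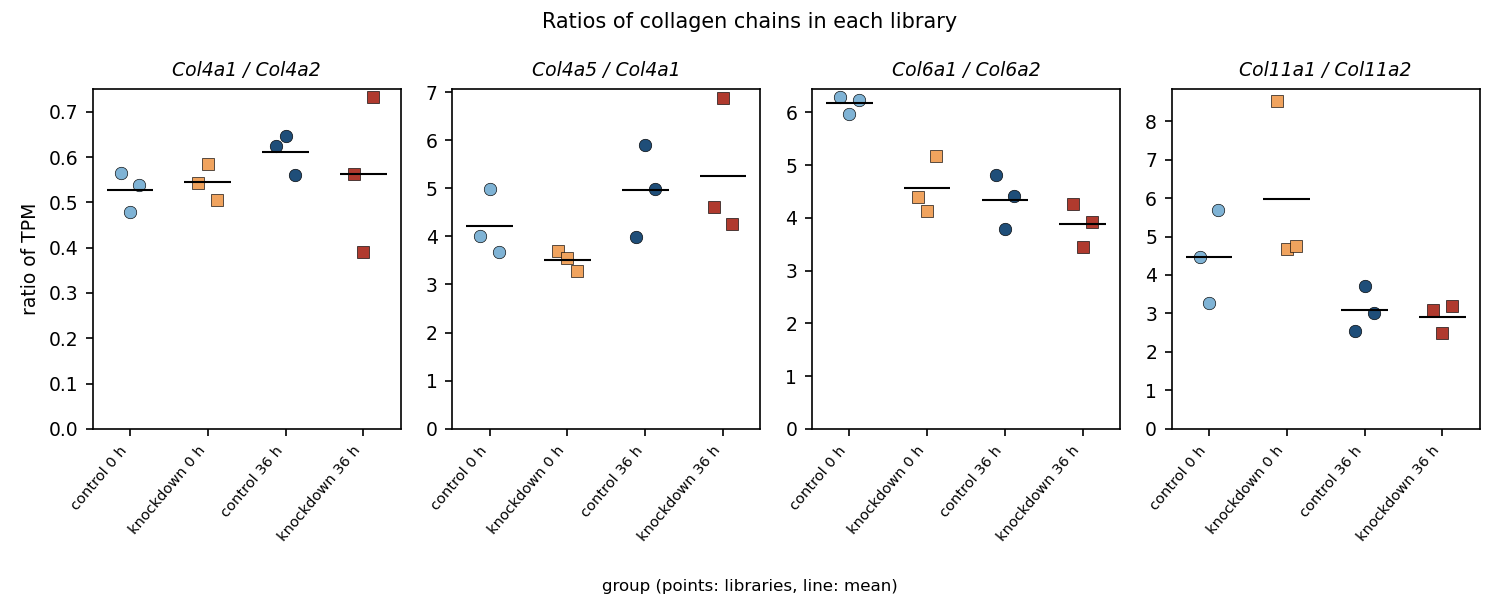
Ratios of TPM for 4 pairs of collagen chains; points are libraries, lines are group means, and each axis starts at 0. The Col4a1 to Col4a2 ratio lies between 0.391 and 0.733, and the Col6a1 to Col6a2 ratio is highest in the 3 control 0 h libraries.

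Between 0 h and 36 h, limma called 0 of the 22 chains in control cells and 0 in knockdown cells, against 0.360% and 1.12% of all genes in either direction. An unadjusted limma p under 0.05 was reached by 7 chains higher and 1 lower in control, against 3.15% and 2.42% of all genes, and by 5 higher and 1 lower in knockdown, against 13.3% and 3.09%. In control the median log2 change was 0.49 over the chains and -0.01 over all genes. Of the 22 chains 18 were positive, as were 7054 of the 14426 genes. In knockdown the medians were 0.25 and 0.33, and that of the chains was 0.09 with median-of-ratios scaling. In control, 6 chains had 36 h libraries wholly above the 0 h libraries, against 9.55% of all genes, and 2 wholly below, against 12.3%. The 6 were Col3a1, Col6a2, Col7a1, Col9a1, Col11a1 and Col27a1, with log2 changes from 0.27 (Col9a1) to 0.94 (Col27a1). Those wholly below were Col6a3 (-1.07, limma adjusted p = 0.173) and Col8a1 (-0.31, limma adjusted p = 1). In knockdown, Col6a2 (1.37, limma adjusted p = 0.0939) and Col11a2 (0.94, limma adjusted p = 0.256) lay wholly above, against 15.0% of all genes, and Col6a3 and Col8a1 again lay wholly below, against 3.91%. Without knockdown 0 h library 2, 1 chain was called in control, against 2.82% of all genes, and without knockdown 0 h library 3, 4 were called in knockdown, against 11.0%.

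The 36 h change was also compared between knockdown and control as an interaction in the same limma model. It called 0 of the 22 chains and 0.00% of all genes tested, and 1 chain reached an unadjusted limma p under 0.05, as did 5.31% of all genes. That chain was Col3a1, whose change was lower in knockdown by -0.93 on the log2(TPM + 1) scale (SE 0.323, limma adjusted p = 0.595). For chains called at 0 h and not at 36 h, such as Col17a1 and Col18a1, a difference between the times was thus not called.

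Collagen chains are hydroxylated and folded in the endoplasmic reticulum, exported, trimmed of their propeptides outside the cell and cross-linked, and genes for these steps and for collagen receptors and cleavage were read from lists of 66 genes, 40 of them tested. At 0 h, 12 were called lower in knockdown and 1 higher, against 14.6% and 3.10% of all genes. The median log2 fold change of the 40 was -0.68, against -0.41 over all genes tested. With median-of-ratios scaling 11 were called lower and 2 higher, against 10.2% and 8.66% of all genes. The medians were then -0.19 and 0.02. Without knockdown 0 h library 2, 12 were called lower and 1 higher, against 16.8% and 6.84% of all genes. Calls fell in hydroxylation and folding (3 of 15 lower, 1 higher), propeptide removal (2 of 3 lower), cross-linking and fibril assembly (5 of 8 lower) and cleavage (2 of 5 lower). In export, 0 of 6 were called, with 2 lower at an unadjusted limma p under 0.05, and among receptors and uptake 0 of 3, with 1 such, against 30.0% of all genes lower at that p. At 36 h, 1 of 40, Sparc, was called lower and 0 higher, against 1.64% and 0.894% of all genes. Without control 0 h library 1, 2 or 3 the calls at 0 h came to 6, 7 and 7, against 5.27% to 7.05% of all genes, and without knockdown 0 h library 3 to 24, against 41.1%.

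In hydroxylation and folding, Serpinh1, the collagen chaperone HSP47, was at 49.5 ± 10.7 TPM in control and 18.9 ± 13.1 TPM in knockdown at 0 h (SD, n = 3). Plod1, a lysyl hydroxylase, was at 28.8 ± 1.82 and 11.0 ± 6.46 TPM, and P4ha2, a subunit of prolyl 4-hydroxylase, at 11.6 ± 3.07 and 4.58 ± 2.20 TPM. For Serpinh1, Plod1 and P4ha2 knockdown 0 h library 2 was the lowest of its group, at 6.32, 3.56 and 2.13 TPM. Crtap, a partner of prolyl 3-hydroxylase, was the gene called higher, at 101, 97.6 and 87.4 TPM in control and 188, 243 and 154 TPM in knockdown at 0 h. The groups did not overlap for Crtap (log2 fold change 1.00, limma adjusted p = 0.00826).

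For propeptide removal, Bmp1, the procollagen C-proteinase, was at 38.3 ± 4.22 TPM in control and 16.1 ± 7.62 TPM in knockdown at 0 h. Pcolce2, an enhancer of that protease, was at 6.68 ± 2.72 and 2.60 ± 0.946 TPM. Knockdown 0 h library 2 was the lowest of its group for Bmp1 and Pcolce2, at 8.74 and 1.63 TPM. Among the genes of cross-linking, the lysyl oxidase family members Loxl3 and Loxl4 had the largest log2 fold changes of the 13 called genes in size, -2.20 (limma adjusted p = 0.0108) and -2.73 (limma adjusted p = 0.0109). Loxl4 stood at 26.5, 23.1 and 22.0 TPM in control and 2.84, 0.48 and 8.17 TPM in knockdown at 0 h. The transglutaminase Tgm2 was at 10.9 ± 0.706 and 2.65 ± 1.72 TPM, and Pxdn, a peroxidase that cross-links collagen IV, was the fifth of this list called lower.

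Sparc, a collagen-binding matrix protein, was the single pathway gene called at both times. It stood at 456, 442 and 429 TPM in control and 267, 106 and 199 TPM in knockdown at 0 h (log2 fold change -1.31, limma adjusted p = 0.0112). At 36 h Sparc stood at 656, 748 and 657 TPM in control and 302, 287 and 327 TPM in knockdown (-1.17, limma adjusted p = 0.0483). Its groups overlapped at neither time. No pathway gene was called at 36 h with a pseudocount of 0.1, no filter, no variance trend or a replicate block, or without any 1 of the control 0 h or knockdown 36 h libraries or control 36 h library 1 or 4, so the 36 h call of Sparc was lost there. Among the collagenases, Mmp14, a membrane-bound one, was at 163 ± 20.6 TPM in control and 45.3 ± 23.2 TPM in knockdown at 0 h (log2 fold change -1.98, limma adjusted p = 0.00733). Mmp13 was at 3.98 ± 1.22 and 1.02 ± 1.15 TPM.

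**Figure D5:**
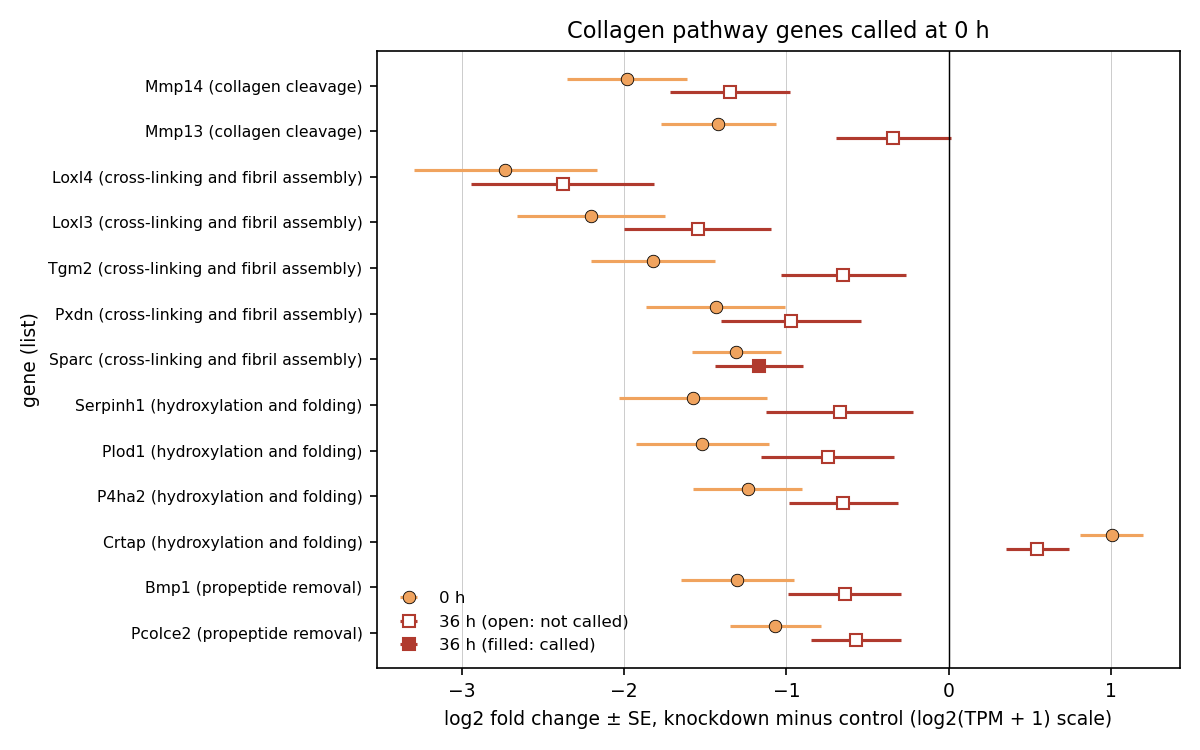
Log2 fold change with SE (knockdown minus control, log2(TPM + 1) scale) of the 13 collagen pathway genes called at 0 h, with the 36 h value beside it. Crtap lies above 0 at both times, the other 12 lie below, and Sparc is the single gene with a filled 36 h symbol.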

How the data were processed

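RNA from 12 HC11 libraries was sequenced after a stranded mRNA preparation, per the labels' protocols. FastQC, cutadapt 1.9.1, HISAT2 2.2.1, HTSeq, DESeq2 and the mouse build GRCm39 are named per the submitters' processing notes, with no role given. The deposited gene table holds TPM computed by the authors for 57180 genes, and which program made them is not given in the sources used here. Their own group means were not used as measurements. Depth is unknown.

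The 14426 genes that reached 1 TPM in 3 or more of the 12 libraries were tested. All 12 libraries were fitted on log2(TPM + 1), with 1 mean per group, in limma 3.58.1 (R 4.3.3) with a variance trend. This scale understates changes of low genes. P-values are two-sided, adjusted per comparison over the full set of tested genes (Benjamini-Hochberg), and called under 0.05. Groups came from sample titles. The fit was also run on simulated data with independent noise and a spread taken without the knockdown 0 h libraries. That run does not cover the spread of that group and is not used as support for the 0 h calls.

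The collagen chains and the pathway lists were chosen with earlier results of these data known. Chains with a group mean of at least 5 TPM or a call are given in every library, and of each pathway list at most the 4 called genes with the lowest adjusted p. Alternatives were another pseudocount, filters, scalings, weights, a replicate block, the compared groups only and left-out libraries. Promoter windows are RefSeq's, GRCm38.p6, and those of Col1a1, Col2a1 and Col9a3 were not used here.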

Additional observations from a re-analysis of the deposited data

How the results depend on the processing

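Across 24 alternatives (23 for the difference between the 36 h changes, since fitting only the groups compared was not run for it, as it uses all 4 groups), the count of collagen chains called stayed within 1.5 times of the reported count in 20 at 0 h, 7 at 36 h, 18 for the change over time in control, 19 for that in knockdown and 23 for the difference. Of the 14 calls on single genes at 0 h or 36 h (12 on chains and 2 on Snai1), 1 (Col8a1 at 0 h) was kept in every alternative and 0 changed sign. With each library left out in turn, the chains called ranged from 4 to 11 at 0 h, from 1 to 10 at 36 h, from 0 to 1 over time in control and from 0 to 4 over time in knockdown, and the pathway genes called from 6 to 24, from 0 to 9, from 0 to 3 and from 0 to 8; of all genes tested, 5.27% to 41.1%, 0.168% to 19.0%, 0.125% to 2.82% and 0.322% to 11.0% were called. Percentages after a count below are the share of all tested genes called in that setting.

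At 0 h, 9 chains were called in the reported fit and 1 (0.668%) when only the 2 groups compared were fitted. At 36 h, 3 were called in the reported fit, 1 (1.74%) with a pseudocount of 0.1, 1 (0.534%) without a filter, 6 (5.93%) with median-of-ratios scaling, 7 (6.47%) with quantile normalization, 21 (53.2%) with array weights, 10 (17.6%) with only the groups compared, 13 (21.4%) without libraries 2 and 3 of knockdown at 0 h, and 10 (19.4%) without that group's library 2 under median-of-ratios scaling. Over time in control, where 0 were called, the counts were 1 (0.769%) with quantile normalization, 16 (33.9%) with array weights, 1 (2.39%) with only the groups compared, 1 (3.37%) without knockdown 0 h libraries 2 and 3, and 2 (2.78%) without library 2 under median-of-ratios scaling. Over time in knockdown, also 0, they were 1 (1.66%) with median-of-ratios scaling, 1 (1.48%) with quantile normalization, 3 (4.60%) with array weights, and 1 (2.87%) without library 2 under median-of-ratios scaling. The array weights did not fully converge.

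Pathway genes at 0 h (13 called) came to 7 (3.50%) without a filter, 20 (32.5%) with array weights and 0 with only the groups compared. At 36 h (1 called) they came to 0 with a pseudocount of 0.1, 0 without a filter, 2 (2.92%) with a filter of 5 TPM, 4 with median-of-ratios scaling, 5 with quantile normalization, 0 (2.47%) without a variance trend, 26 with array weights, 8 with only the groups compared, 10 without libraries 2 and 3, and 11 without library 2 under median-of-ratios scaling. Over time in control (0 called) they came to 1 (0.610%) with median-of-ratios scaling, 15 with array weights, 4 with only the groups compared, 4 without libraries 2 and 3, and 1 without library 2 under median-of-ratios scaling. Over time in knockdown (0 called) they came to 1 with median-of-ratios scaling, 1 with quantile normalization, 2 with array weights, 1 (2.00%) without libraries 2 and 3, and 1 without library 2 under median-of-ratios scaling. Where no percentage follows, it is that given above for the same comparison and setting. The cause was not tested for any of these counts.

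The replicate numbers were checked for pairing. Over 15 pairs of same-numbered libraries the correlation of deviations ran from -0.287 to 0.132, with 2 over 0.1. Of 11 libraries 3 correlated best with their own number, so the libraries were treated as unpaired. The number 4 occurs only in control at 36 h, so a replicate block fits that library exactly. Under the block, control 36 h library 4 thus adds nothing to the 36 h comparison, much as when it is left out. With a replicate block, 0 chains (0.0347%) were called at 36 h, and 1 (0.229%) with the block and median-of-ratios scaling; pathway genes came to 7 (7.01%) and 7 (9.66%) at 0 h and 0 and 0 at 36 h.

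Signs turned for uncalled chains. At 0 h with median-of-ratios scaling, the same with the replicate block added, the log2 fold change was 0.19 for Col3a1, 0.19 for Col11a1, 0.18 for Col4a1, 0.14 for Col4a2 and 0.21 for Col16a1. With quantile normalization it was 0.25 for Col11a1, 0.22 for Col4a1, 0.22 for Col4a2 and 0.27 for Col16a1. Without knockdown 0 h library 2 under median-of-ratios scaling it was 0.12 for Col2a1, 0.069 for Col11a1 and -0.056 for Col27a1. With array weights it was -0.071 for Col9a2 and -0.035 for Col27a1, and with knockdown libraries 2 and 3 of 0 h left out -0.21 and -0.034. With single libraries left out, under either scaling, it ranged from -0.63 to 0.12 for Col2a1, from -0.25 to 0.12 for Col3a1, from -0.44 to 0.069 for Col11a1 and from -0.19 to 0.42 for Col27a1, and it turned to 0.047 for Col3a1 without control 0 h library 1. At 36 h, Col9a2 was at -0.032 with array weights, -0.020 with the block, -0.019 with the block and median-of-ratios scaling, and from -0.14 to 0.18 with single libraries left out, where -0.12 came without knockdown library 2. Depth, which limits low chains, is unknown.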
